A study of Homo sapiens with 6 samples.

Results

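The genes described here are the DNA-binding transcription factors, other than zinc finger genes named as such, in a table of genes that differed between AsPC-1 cells with and without a short hairpin RNA against TMPRSS4. The rule for members uses annotation and gene names and no measured value, and it was set with earlier results of these data known. Of the 753 genes in the table, 64 carried at least 1 of 6 Gene Ontology function terms for sequence-specific DNA binding or transcription factor activity. From these, 7 were left out because their symbols start with a zinc finger prefix such as ZNF or ZBTB, and 14 lineage, feedback and histone genes were left out by name. The remaining 43 genes, 5.71% of the table, are the members. The table itself is a selection made on the outcome, since every row in it had a log2 fold change of at least 1 in size and a false discovery rate (FDR) of at most 0.0490 in the authors' deposited table. Factors outside that selection were not analysed here, so nothing below says how many of the factors in these cells responded.

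AsPC-1 is an established cell line from a human pancreatic cancer. The control group (genotype label TMPRSS4 NC) received control lentivirus, and the shTMPRSS4 group (genotype label TMPRSS4-Knockdown) received shTMPRSS4 lentivirus. Each group had 3 libraries of polyadenylated RNA. TMPRSS4, a membrane-bound serine protease, was not analysed here, so the knockdown was not checked, and the labels do not say whether the replicates were separate cultures or whether more than 1 hairpin was used.

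Sequence-specific transcription factors bind short DNA motifs near genes and raise or lower their transcription, and they are grouped into families by the fold of the DNA-binding domain. Many work in pairs. Basic leucine zipper and basic helix-loop-helix proteins bind as dimers, and homeodomain proteins of the MEIS group bind next to HOX proteins. Co-repressors and co-activators have no such domain and are brought to DNA by the factors they contact. In the pancreas, homeodomain, SOX and basic helix-loop-helix factors set out the ductal, acinar and endocrine lineages during development.

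The name transcription factor fits only some of these genes. By domain, 25 of the 43 members belong to families with a known sequence-specific DNA-binding domain. Another 9 are co-regulators or dimer partners (ID2, CITED1, TLE4, RCOR2, CBFA2T3, POU2AF1, HOPX, SKOR1 and JAZF1). The last 9 are chromatin or other proteins (PHF6, IFI16, TET1, SETBP1, SP140, RAG1, ZC3H6 and PINX1 among them), which include a recombinase and a telomerase inhibitor. This division was made with the members known. By annotation, 34 members carried the term for RNA polymerase II transcription factor activity and 24 the general term for sequence-specific transcription factor activity. At recovered depth, all 6 members annotated as transcriptional repressors, 10 of the 11 annotated as activators and all 13 annotated for binding close to core promoters were higher in the shTMPRSS4 libraries, against 73.7% of all listed genes. These counts are descriptions, since other scalings turn some members, as given below.

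Levels are given in FPKM, a read count scaled to transcript length and library depth, which the authors computed and which allows a comparison between genes. Of the 43 members, 33 (76.7%) were higher and 10 lower in the shTMPRSS4 libraries, against 73.7% higher among all 753 genes of the table. The members' FPKM did not overlap between the groups for 32 higher and 9 lower genes. Over all listed genes, 72.8% of genes were higher and 25.0% lower without overlap, 97.7% in all, so the members' 41 of 43 is near that background. The edgeR quasi-likelihood test with Benjamini-Hochberg adjustment was run on the counts of all listed genes. It tested 40 members after its filter on low counts and called 31 higher and 8 lower at an adjusted p under 0.05, that is 39 of 40. Among all 705 listed genes it tested, 73.3% were called higher and 25.8% lower, 99.1% in all. The authors' selection held 4.98% of the 15117 genes over which they had adjusted. A p-value on genes already picked by their difference in these very libraries describes the spread between replicates and adds no independent evidence that a gene differs. The median log2 fold change was 1.22 over the 40 members tested and 1.29 over all 705 genes.

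Library depth, recovered from the ratio of counts to FPKM, lay between 30200000 and 57200000 reads. The members took between 0.0423% and 0.0475% of the reads in the control libraries and between 0.0569% and 0.0590% in the shTMPRSS4 libraries. Control replicate 3 was the shallowest and the single library with the lane code L3 in its label. Of the fixed marker lists, none of 10 ductal epithelial and none of 8 immune genes were in the table, so the labelled cell type could not be checked. The table held 1 of 8 fibroblast, 1 of 5 endothelial, 1 of 5 acinar and 1 of 6 endocrine markers: FAP, CELA3A and GCG were higher and PECAM1 was lower in the shTMPRSS4 libraries, at group means of at most 3.59 FPKM. Their part in the results below was not tested, and in bulk RNA a change in the share of cells and a change in RNA per cell cannot be told apart. When the scale was instead set by the listed genes alone, the median log2 fold change of all tested genes moved by -1.21 with TMM and by -1.16 with DESeq2 size factors. The members' calls were then 6 higher and 10 lower with TMM, against 166 and 191 over the 705 listed genes tested. With DESeq2 size factors they were 7 higher and 9 lower, against 180 and 187. Of the rises, only those of CBFA2T3, ATOH8, RCOR2, SETBP1, MEIS3 and POU2AF1 stayed called under both scalings, and that of JUND with DESeq2 size factors alone. Directions and calls below are therefore relative to recovered depth. PHF6, ZC3H6, IRX5, EBF4, ETV2, SOX6 and SKOR1 turned to the lower side under both of these scalings, and MEIS1, TET1 and GATA2 under TMM alone. Of these, only PHF6 was called lower, with TMM (log2 fold change -0.21, edgeR adjusted p = 0.0220). Upper-quartile scaling over the listed genes moved the median by -0.66 and turned none of the tested members named here. It called 22 members higher and 9 lower, against 412 and 187 over all listed genes.

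**Figure D1:**
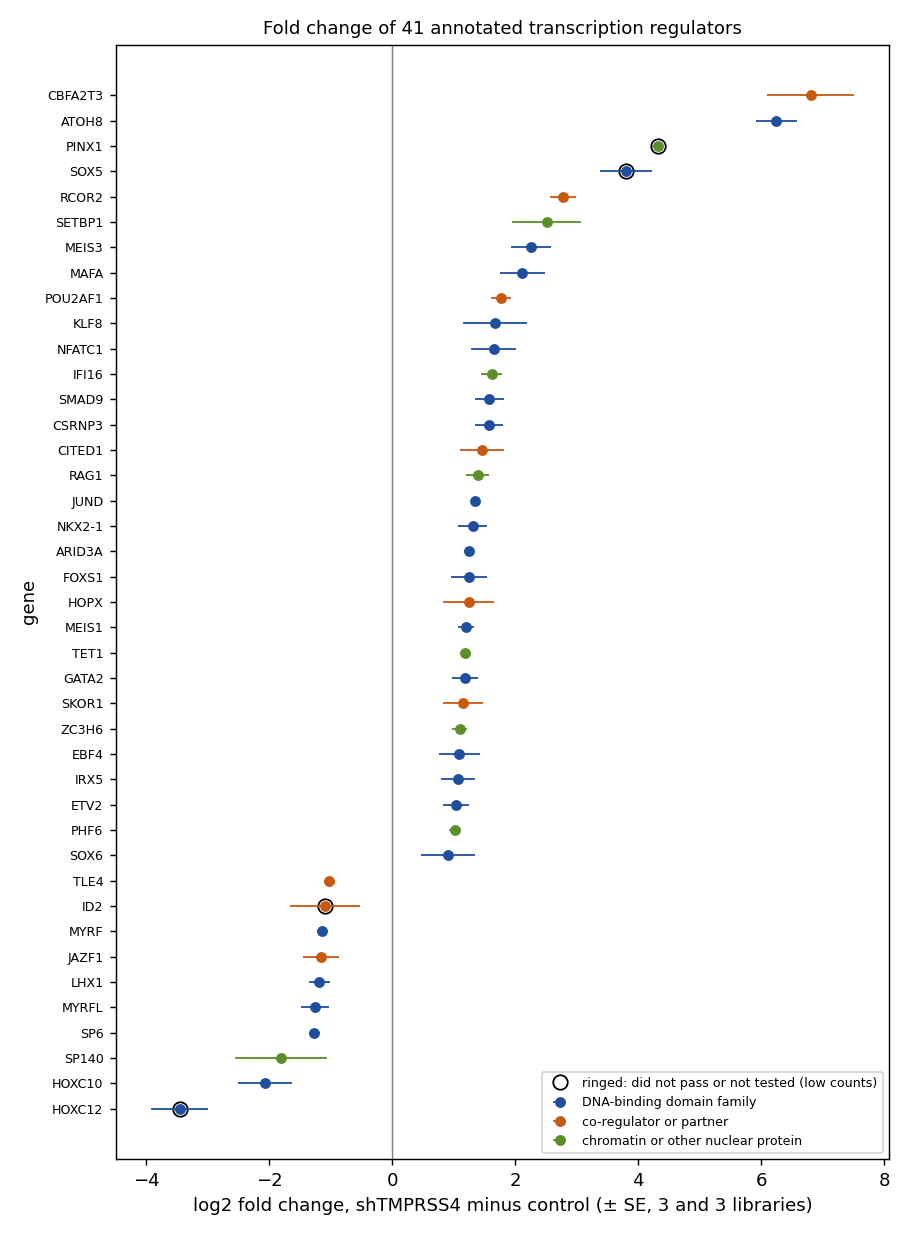
Log2 fold change (shTMPRSS4 minus control, horizontal axis) with its standard error over 3 and 3 libraries for each of 41 members, coloured by kind of protein. CBFA2T3 and ATOH8 stand apart on the right, most other members lie near 1 in size, and rings mark ID2, which did not pass, and HOXC12, SOX5 and PINX1, which were not tested for lack of counts. HOXC12, SOX5 and PINX1 had no reads in 1 group, so their drawn folds depend on the 0.5 added to the counts. Their standard errors leave out counting error in that group.

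JUND, a subunit of the AP-1 dimer that binds promoters of growth and stress response genes, was the most abundant member (ENSG00000130522, chromosome 19, 18279760 to 18281622 in GRCh38). It had 53.5, 47.9 and 49.4 FPKM in the control libraries (replicates 1, 2 and 3) and 128, 129 and 125 FPKM in the shTMPRSS4 libraries. All shTMPRSS4 values were more than 2 times the highest control value, and replicates within a group were close. The level rose 2.53-fold, with a log2 fold change of 1.34 ± 0.05 (SE) at an edgeR adjusted p of 4.20e-09, and the call was lost under TMM over the listed genes (adjusted p = 0.0821). JUND made up between 24.5% and 29.9% of the summed FPKM of the 43 members in the controls and between 46.4% and 47.1% in the shTMPRSS4 libraries. Without JUND the members summed to 147, 148 and 116 FPKM in the controls and to 148, 145 and 142 FPKM in the shTMPRSS4 libraries, so the summed level of the other 42 members overlapped between the groups.

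MAFA, the other basic leucine zipper member and an activator of the insulin gene in beta cells, stayed at a low level. Its FPKM was 0.14, 0.13 and 0.07 in the controls and 0.36, 0.58 and 0.54 in the shTMPRSS4 libraries, from 19, 11 and 5 and 45, 69 and 59 counts. The groups did not overlap, and the log2 fold change was 2.11 ± 0.37 (edgeR adjusted p = 3.39e-04).

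ATOH8, a basic helix-loop-helix factor of the atonal family, had the second largest rise of the members tested (ENSG00000168874, chromosome 2, 85751344 to 85788066). Its FPKM was 0.07, 0.03 and 0.07 in the controls and 4.17, 4.30 and 5.04 in the shTMPRSS4 libraries. The controls were close to 0, with 10, 3 and 5 counts, against 542, 529 and 574 counts in the shTMPRSS4 libraries. The log2 fold change was 6.25 ± 0.34, with an edgeR adjusted p of 3.24e-09. With 18 control counts in all, the size of this fold is imprecise.

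ID2 has a helix-loop-helix domain but no basic region, and keeps helix-loop-helix factors from binding DNA. It had 42.9, 46.6 and 13.8 FPKM in the controls and 14.7, 13.5 and 14.2 FPKM in the shTMPRSS4 libraries. Control replicate 3 lay within the range of the shTMPRSS4 libraries, while the other 2 controls were about 3 times as high. The log2 fold change of -1.10 ± 0.57 did not pass (edgeR adjusted p = 0.0580). Without control replicate 3 it was -1.66 (edgeR adjusted p = 3.05e-07), and with control replicate 1 or 2 left out it was -0.85 or -0.79 (adjusted p = 0.158 or 0.141). ID2 was in the table with an FDR of 0.0292 in the authors' deposited table. The DESeq2 Wald test at the same depth gave an adjusted p of 5.39e-04. In edgeR, ID2 was called lower with TMM (adjusted p = 0.0163), DESeq2 size factors (0.0164) and upper-quartile scaling (0.0224). With at least 1 FPKM in the higher group its edgeR adjusted p was 0.0339. With limma, with no filter, with a replicate block or without any 1 shTMPRSS4 library it was not called. This call therefore turns on 1 library, the test, the scaling and the filter.

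**Figure D2:**
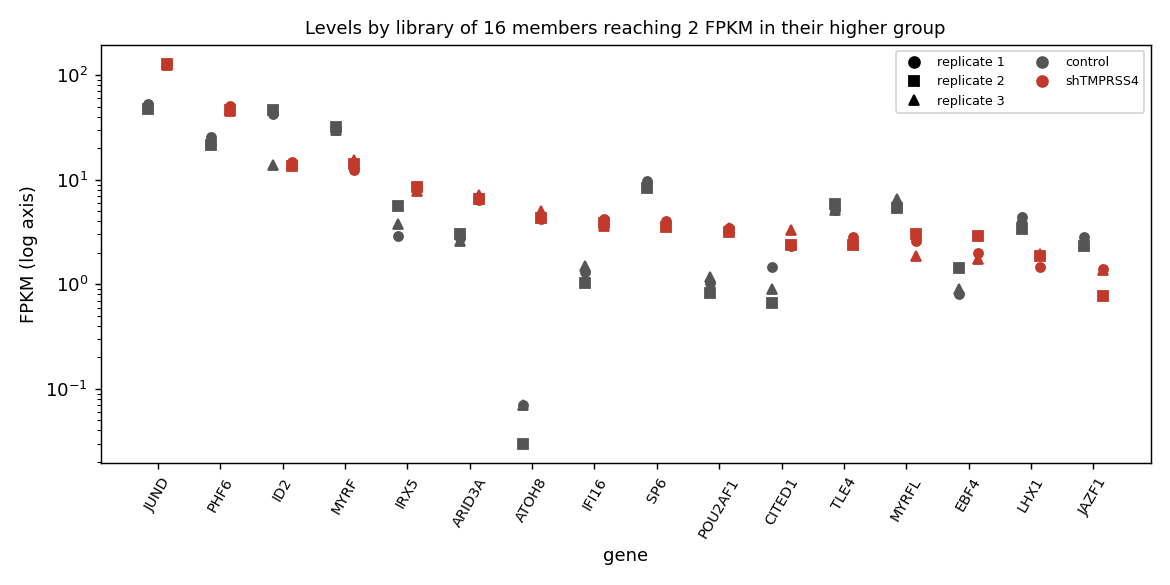
FPKM on a log axis for 16 members whose higher group averaged at least 2 FPKM, with control libraries in grey, shTMPRSS4 libraries in red and a marker shape for each replicate. JUND lies highest in the shTMPRSS4 libraries, ATOH8 starts below 0.1 FPKM in the controls, and ID2 has 1 control library at the level of the shTMPRSS4 libraries.

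Homeobox genes were found in both directions. IRX5, MEIS1 and MEIS3, TALE genes whose homeodomain carries extra residues in a loop, were higher and passed, although IRX5 turned lower with TMM and with DESeq2 size factors and MEIS1 with TMM. HOXC10, HOXC12 and LHX1 were lower. NKX2-1 and HOPX were higher. Over all listed genes, 72.8% of genes were higher without overlap, so the shared direction of these TALE genes is a description of them alone.

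IRX5, an Iroquois gene of heart and retina development, had 2.89, 5.60 and 3.77 FPKM in the controls and 8.52, 8.58 and 7.73 FPKM in the shTMPRSS4 libraries. The controls were uneven, with replicate 2 almost 2 times replicate 1, and still lay below every shTMPRSS4 library. The log2 fold change was 1.07 ± 0.28 (edgeR adjusted p = 0.00137). MEIS3, a less studied relative of MEIS1, had 0.17, 0.25 and 0.12 FPKM in the controls and 0.73, 0.85 and 1 FPKM in the shTMPRSS4 libraries, with a log2 fold change of 2.26 ± 0.32 (edgeR adjusted p = 1.40e-04), the largest rise among the homeobox genes named here. MEIS1, a partner of HOX proteins in blood progenitors, went from 0.263 ± 0.0351 to 0.617 ± 0.0404 FPKM (mean ± SD of 3 libraries each, edgeR adjusted p = 5.13e-04).

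LHX1, a LIM homeobox gene of head and kidney development, was the homeobox gene with the lowest FDR in the authors' deposited table (2.40e-09). It had 4.36, 3.40 and 4.32 FPKM in the controls and 1.48, 1.86 and 1.96 FPKM in the shTMPRSS4 libraries. No shTMPRSS4 library reached the lowest control. It was 2.28-fold lower, and the log2 fold change was -1.19 ± 0.17 at an edgeR adjusted p of 7.10e-05. Exons of a gene on the opposite strand cover 7.52% of its exonic bases, and the library protocol describes no strand marking.

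HOXC10 and HOXC12 lie 26108 bases apart in the HOXC cluster on chromosome 12, and both were lower at very low counts. HOXC10 (ENSG00000180818, chromosome 12, 53985065 to 53990279) had 17, 12 and 10 counts in the controls and 3, 2 and 6 in the shTMPRSS4 libraries, a log2 fold change of -2.07 ± 0.44 (edgeR adjusted p = 0.00408). HOXC12 (ENSG00000123407, chromosome 12, 53954834 to 53958956) had 10, 2 and 4 counts in the controls and 0 in each shTMPRSS4 library. Against a floor of 3 counts over the shTMPRSS4 group, HOXC12 was 6.44-fold lower. The floor covers counting error in the shTMPRSS4 group only, and the control counts are taken as they stand, so this is not a strict lower bound. It was too low for the filter and passed when no filter was used (edgeR adjusted p = 0.0117). Of the exonic bases of HOXC10, 9.82% lie in exons of 2 other genes, 1 of them the antisense RNA HOXC-AS3.

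NKX2-1, which specifies thyroid and lung epithelium, rose 2.51-fold, from 0.737 ± 0.123 to 1.85 ± 0.393 FPKM (log2 fold change 1.31 ± 0.24, edgeR adjusted p = 3.92e-04), and 12.7% of its exonic bases lie in exons of other genes, the antisense NKX2-1-AS1 among them. HOPX, a small homeodomain protein that does not contact DNA itself, rose from 0.710 ± 0.289 to 1.60 ± 0.249 FPKM (edgeR adjusted p = 0.00444).

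Both SOX members belong to the SoxD group, which lacks an activation domain of its own and pairs through a coiled coil. SOX6 had 0.77, 0.70 and 0.64 FPKM in the controls and 1.77, 1.77 and 0.72 FPKM in the shTMPRSS4 libraries. Replicate 3 of the shTMPRSS4 group lay among the controls, and the other 2 were more than 2 times as high. The log2 fold change was 0.91 ± 0.44 (edgeR adjusted p = 0.0122), 1.34 without shTMPRSS4 replicate 3, and no longer called without control replicate 3 (edgeR adjusted p = 0.0520). SOX5 had 0 counts in all controls and 14, 5 and 5 counts in the shTMPRSS4 libraries. It was 6.62-fold higher against a floor of 3 counts over the control group, which leaves out counting error in the shTMPRSS4 libraries. It passed when no filter was used (edgeR adjusted p = 0.00879).

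MYRF and MYRFL, members of a small family of membrane-anchored factors that cut themselves free to enter the nucleus, were both lower and lie on different chromosomes. MYRF (ENSG00000124920, chromosome 11, 61752642 to 61788518), known for switching on myelin genes in oligodendrocytes, had 29.98, 31.8 and 30.1 FPKM in the controls and 12.5, 14.2 and 15.3 FPKM in the shTMPRSS4 libraries. It was 2.19-fold lower, a log2 fold change of -1.13 ± 0.09 with an edgeR adjusted p of 1.28e-07. MYRFL (ENSG00000166268, chromosome 12, 69825304 to 69959097) had 5.78, 5.39 and 6.50 FPKM in the controls and 2.60, 3.06 and 1.86 FPKM in the shTMPRSS4 libraries. Neither gene overlapped between the groups. For MYRFL the log2 fold change was -1.26 ± 0.23 (edgeR adjusted p = 8.06e-05). The share of 31-base words found in other genes was 0% for MYRF, so its reads could be told from those of MYRFL, and 8.27% for MYRFL, which overlaps an uncharacterised gene on its own strand. The words were compared on the transcript strand only, and exons of TMEM258 on the opposite strand cover 3.75% of the exonic bases of MYRF.

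SP6, a zinc finger factor of the SP and KLF family known from tooth and skin epithelium, had 9.77, 8.36 and 9.35 FPKM in the controls and 4.03, 3.55 and 3.84 FPKM in the shTMPRSS4 libraries. Values within each group were close. SP6 was 2.41-fold lower, and the log2 fold change was -1.26 ± 0.09 at an edgeR adjusted p of 3.01e-07. KLF8, a repressor of the same family, went the other way. It had 0.17, 0.33 and 0.57 FPKM in the controls and 1.06, 1.19 and 0.84 FPKM in the shTMPRSS4 libraries, a log2 fold change of 1.67 ± 0.52 (edgeR adjusted p = 0.00244). Its controls were spread more than 3-fold.

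Among the remaining DNA-binding families, 8 genes were each the only one of theirs. All 8 were higher at recovered depth, against 73.7% of all listed genes. EBF4 and ETV2 turned lower with TMM and with DESeq2 size factors and GATA2 with TMM. ARID3A, SMAD9, FOXS1, NFATC1 and CSRNP3 kept their direction but lost their calls under both of these scalings. ARID3A, which binds AT-rich DNA, had 2.79, 3.04 and 2.61 FPKM in the controls and 6.43, 6.57 and 7.14 FPKM in the shTMPRSS4 libraries. The groups stood well apart, and the log2 fold change was 1.25 ± 0.08 at an edgeR adjusted p of 5.16e-07. With TMM over the listed genes it was 0.03 (edgeR adjusted p = 0.836). SMAD9, a receptor-activated SMAD of the BMP pathway, rose from 0.430 ± 0.0954 to 1.28 ± 0.250 FPKM (log2 fold change 1.58 ± 0.24, edgeR adjusted p = 4.08e-05). EBF4, of the early B cell factor family, had 0.80, 1.42 and 0.90 FPKM in the controls and 2.00, 2.87 and 1.74 FPKM in the shTMPRSS4 libraries, with replicate 2 the highest of each group. Its log2 fold change was 1.09 ± 0.33 (edgeR adjusted p = 0.00253). GATA2, required for blood stem cells, went from 0.370 ± 0.0557 to 0.847 ± 0.155 FPKM, and ETV2, an ETS factor that specifies endothelium, from 0.860 ± 0.0781 to 1.80 ± 0.395 FPKM. The forkhead gene FOXS1 rose from 0.323 ± 0.0808 to 0.770 ± 0.157 FPKM and NFATC1, a target of calcineurin signalling, from 0.12 ± 0.0436 to 0.377 ± 0.0764 FPKM. CSRNP3, of a small cysteine- and serine-rich family, rose from 0.0367 to 0.110 FPKM on 25 and 93 counts. The edgeR adjusted p-values were 0.00163 for GATA2, 0.00199 for ETV2, 0.00441 for FOXS1, 0.00101 for NFATC1 and 0.00233 for CSRNP3.

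Sequence upstream of the members' start sites was searched for 9 short motifs of the families above, on both strands. The search covered the 250 bases before the first listed RefSeq start of each member (GRCh38.p14), while shares over all windows used every window. The motifs were TGACTCA for AP-1, the E-box CAGCTG for helix-loop-helix dimers, TGACGTCA for the cyclic AMP response element (CRE), TGACAG for TALE and TAATTA for other homeodomains, CACCC for KLF and SP factors, AGATAA for GATA factors, TTGTTC for SOX factors and the octamer ATGCAAAT. A window was found for 27 of the 43 members. The CRE and the octamer were added after the JUND window had been read. JUND and MYRFL are shown because they are the most abundant riser and a faller with windows outside annotated exons, and because they differ in base composition, 74.8% G or C against 29.6%. Capitals mark the motif matches.
JUND: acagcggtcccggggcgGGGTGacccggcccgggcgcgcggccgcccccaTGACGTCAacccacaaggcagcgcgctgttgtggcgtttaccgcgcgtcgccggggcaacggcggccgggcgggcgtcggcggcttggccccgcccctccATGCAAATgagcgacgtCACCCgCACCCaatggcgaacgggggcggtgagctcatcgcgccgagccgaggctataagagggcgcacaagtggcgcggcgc
MYRFL: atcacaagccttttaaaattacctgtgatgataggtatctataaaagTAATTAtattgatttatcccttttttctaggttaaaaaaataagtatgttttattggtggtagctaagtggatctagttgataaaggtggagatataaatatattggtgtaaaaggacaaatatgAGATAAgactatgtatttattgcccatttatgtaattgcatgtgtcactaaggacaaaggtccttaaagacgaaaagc
The JUND window (chr19:18281623-18281872, minus strand) held 1 CRE, 1 octamer and 3 CACCC matches, 2 of the latter separated by a single base. The MYRFL window (chr12:69824977-69825226, plus strand) held 1 TAATTA and 1 AGATAA. The CRE was in 2 of 27 member windows, JUND and ETV2, and in 1.65% of all 35116 windows of this length, and the octamer in 1 of 27 and in 1.63%.

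E-boxes of the form bound by many helix-loop-helix dimers are shown for the 4 members that held one, with the E-box in capitals within 30 bases.
ATOH8: cggccggcggccCAGCTGttttgaaaaatg
ETV2: cgattgtgacgtCAGCTGacgctgggggcg
ID2: tatttaccacccCAGCTGggctcgcgcccc
RAG1: caggccaagcccCAGCTGcggacgccactg
These E-boxes begin 215, 54, 205 and 115 bases before the RefSeq start sites used for ATOH8, ETV2, ID2 and RAG1, and all 4 genes lie on the plus strand (GRCh38.p14, chr2:85753764-85753793, chr19:35641679-35641708, chr2:8681839-8681868 and chr11:36510226-36510255). The sequences of ATOH8 and ID2 lie inside the GENCODE spans of these genes, which start at 85751344 and 8678845. Overlap of these 4 sequences with exons was not checked. In ETV2 the last 2 bases of a CRE are the first 2 of the E-box. The 4 of 27 windows are 14.8%, against 14.0% of all windows. CACCC was in 15 of 27 member windows, 55.6%, against 54.7% of all windows. AGATAA was in 3 and TTGTTC in 2 member windows, against 9.17% and 9.38% of all. TAATTA was in 1, against 4.35%. No member window held TGACTCA or TGACAG, which 4.20% and 13.0% of all windows held. A match is a run of letters and not a bound site.

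Co-regulators held the largest rise. CBFA2T3, a co-repressor of the ETO family that works in blood cell development (ENSG00000129993, chromosome 16, 88874858 to 88977204), had 2, 0 and 0 counts in the controls and 119, 102 and 77 in the shTMPRSS4 libraries. In FPKM these were 0.02, 0 and 0 and 1.46, 1.33 and 1.08, so the gene went from hardly any reads to a level above 1 FPKM in every shTMPRSS4 library. The depth-corrected ratio of counts was 123, with an exact 95% interval of 33.9 to 1024 that covers counting error only, and the edgeR adjusted p was 8.30e-07. The log2 fold change of 6.80 ± 0.70 moved to 7.42 without control replicate 1, the only control with reads.

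RCOR2, a CoREST protein that joins histone demethylase and deacetylase on chromatin, had 0.28, 0.34 and 0.20 FPKM in the controls and 1.81, 1.88 and 1.88 FPKM in the shTMPRSS4 libraries. The shTMPRSS4 values were nearly equal. RCOR2 rose 6.79-fold, a log2 fold change of 2.78 ± 0.21 with an edgeR adjusted p of 8.55e-07. POU2AF1, the co-activator that joins octamer factors in B cells, had 1.02, 0.82 and 1.18 FPKM in the controls and 3.48, 3.20 and 3.49 FPKM in the shTMPRSS4 libraries. It rose 3.37-fold without overlap, with a log2 fold change of 1.77 ± 0.16 (edgeR adjusted p = 5.51e-06). CITED1, which binds the co-activators CBP and p300, had 1.45, 0.66 and 0.90 FPKM in the controls and 2.33, 2.39 and 3.30 FPKM in the shTMPRSS4 libraries, a log2 fold change of 1.46 ± 0.36 (edgeR adjusted p = 0.00161). Other genes hold 35.3% of its 31-base words, and PIN4 overlaps it on the opposite strand, so its level depends on how the authors assigned shared reads. SKOR1, a co-repressor related to SKI, rose from 0.150 ± 0.0458 to 0.337 ± 0.0757 FPKM (edgeR adjusted p = 0.00551).

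TLE4 and JAZF1 were the called falls among co-regulators. TLE4, a Groucho co-repressor recruited by several homeodomain and TCF factors, had 5.19, 5.82 and 5.13 FPKM in the controls and 2.86, 2.40 and 2.70 FPKM in the shTMPRSS4 libraries. It was 2.03-fold lower, with a log2 fold change of -1.02 ± 0.09 (edgeR adjusted p = 4.38e-05). JAZF1, a zinc finger protein of a histone acetyltransferase complex, had 2.85, 2.31 and 2.48 FPKM in the controls and 1.39, 0.77 and 1.38 FPKM in the shTMPRSS4 libraries. Replicate 2 was the lowest of each group, and the groups did not overlap (log2 fold change -1.15 ± 0.29, edgeR adjusted p = 0.00111). Exons of other genes on the opposite strand cover 11.7% of its exonic bases. A fixed list of 37 co-regulators and dimer partners had 3 genes in the table, ID2, TLE4 and CITED1, all of them members. The others were not analysed here.

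**Figure D3:**
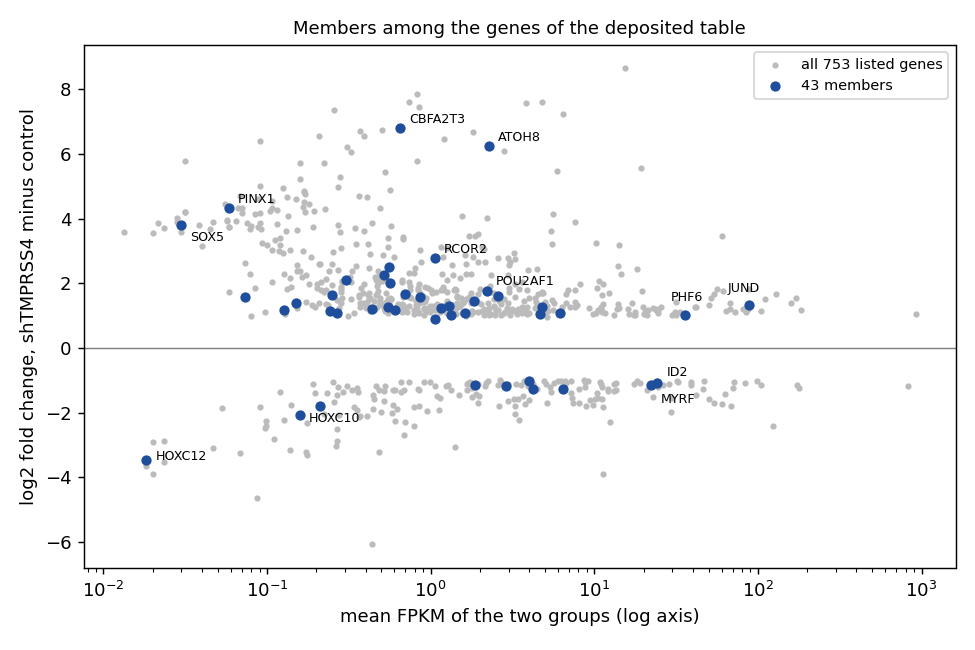
Log2 fold change (shTMPRSS4 minus control) against the mean FPKM of the groups on a log axis, with all 753 genes of the table in grey and the 43 members in blue. The empty band around 0 is the authors' fold threshold, and CBFA2T3 and ATOH8 lie highest among the members, whose tested folds span -2.07 to 6.80 against -6.08 to 8.64 over the tested genes of the table.

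Chromatin and other nuclear proteins were higher in 8 of 9 cases at recovered depth, against 73.7% of all listed genes. Of these, PHF6 and ZC3H6 were lower with TMM and with DESeq2 size factors and TET1 with TMM. PHF6, an X-linked chromatin protein with PHD-like zinc fingers, was the second most abundant member in the shTMPRSS4 libraries (ENSG00000156531, chromosome X, 134373253 to 134428791). Its FPKM was 25.9, 21.4 and 23.7 in the controls and 51.01, 46.5 and 45.8 in the shTMPRSS4 libraries. The groups stood apart, and the level rose 2.02-fold (log2 fold change 1.02 ± 0.09, edgeR adjusted p = 6.27e-07). With TMM over the listed genes PHF6 was instead called lower (log2 fold change -0.21, edgeR adjusted p = 0.0220). IFI16, an interferon-inducible sensor of DNA, had 1.32, 1.03 and 1.5 FPKM in the controls and 4.22, 3.84 and 3.65 FPKM in the shTMPRSS4 libraries. It rose 3.04-fold with no overlap, a log2 fold change of 1.61 ± 0.17 (edgeR adjusted p = 1.06e-05). SETBP1, a nuclear protein with AT hooks, had 0.16, 0.31 and 0.08 FPKM in the controls and 1, 0.82 and 0.96 FPKM in the shTMPRSS4 libraries. Control replicate 2 was almost 4 times control replicate 3 and still less than any shTMPRSS4 library (log2 fold change 2.51 ± 0.56, edgeR adjusted p = 2.12e-04).

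TET1, which oxidises methylated cytosine, rose from 0.0767 ± 0.00577 to 0.177 ± 0.0153 FPKM (edgeR adjusted p = 7.14e-04). The CCCH zinc finger gene ZC3H6 rose from 0.170 ± 0.0173 to 0.367 ± 0.0503 FPKM (edgeR adjusted p = 2.40e-04). RAG1, the recombinase of antigen receptor genes, had 29, 17 and 20 counts in the controls and 79, 63 and 72 in the shTMPRSS4 libraries, a mean of 0.0833 to 0.217 FPKM (edgeR adjusted p = 6.11e-04), and RAG2 shares part of its exons on the opposite strand.

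SP140, a chromatin reader of immune cells, was the 1 lower gene of this group. It had 0.35, 0.24 and 0.35 FPKM in the controls and 0.16, 0.13 and 0.03 FPKM in the shTMPRSS4 libraries, from 46, 20 and 24 and 19, 15 and 3 counts. Replicate 3 of the shTMPRSS4 group was much the lowest. Other genes hold 14.4% of the 31-base words of SP140, and exons of SP110 on the opposite strand cover 3.05% of its exonic bases. The log2 fold change of -1.80 ± 0.75 (edgeR adjusted p = 0.0112) became -1.08 without shTMPRSS4 replicate 3 (adjusted p = 0.0287).

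The row named PINX1 carries the identifier ENSG00000258724, a locus separate from the other gene of that name. In GENCODE release 29 it spans 10725399 to 10839847 on chromosome 8, and 100% of its exonic bases lie in exons of SOX7 or of a second gene named PINX1, on the same strand. Other genes hold 98.4% of its 31-base words. It had 0 counts in all controls and 10, 10 and 11 counts in the shTMPRSS4 libraries. Against a floor of 3 counts over the control group it was 8.56-fold higher, which leaves out counting error in the shTMPRSS4 libraries. Since nearly all its sequence is shared, these counts depend on how reads were assigned and give no level of the telomerase inhibitor PINX1 or of SOX7.

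**Figure D4:**
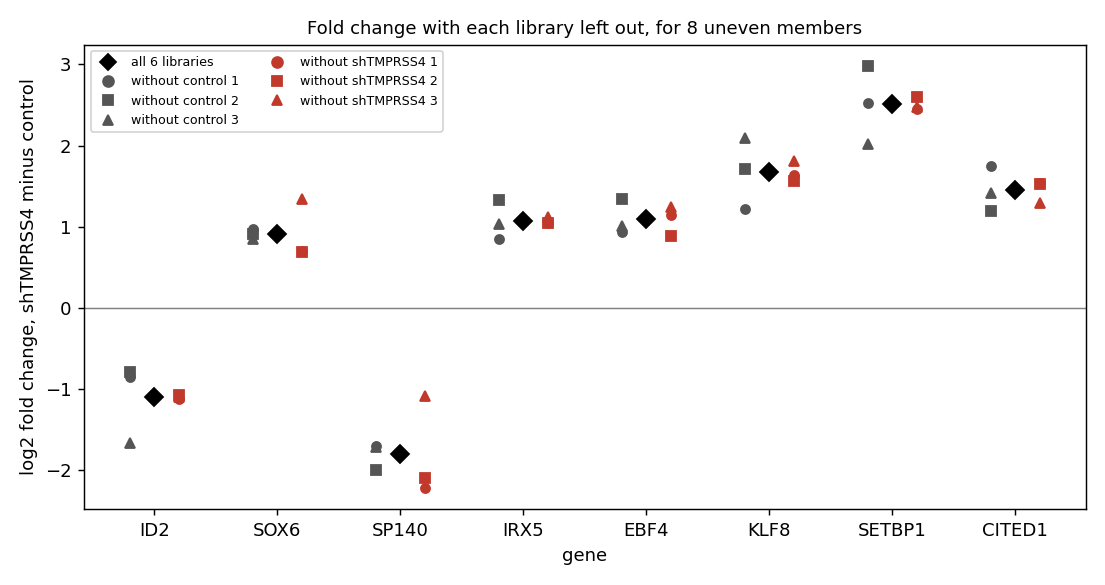
Log2 fold change (shTMPRSS4 minus control) of 8 members with uneven replicates, with all 6 libraries (black diamonds) and with each control (grey) or shTMPRSS4 library (red) left out. ID2 moves furthest from 0 without control replicate 3, SP140 moves towards 0 without shTMPRSS4 replicate 3, SOX6 is largest without shTMPRSS4 replicate 3, and none of the 8 changes sign.

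By level, 17 of the 43 members reached a mean of at least 2 FPKM in their higher group, and 13 had a mean under 0.5 FPKM over both groups. JUND, PHF6, MYRF and ID2 together made up between 70.7% and 75.9% of the summed FPKM of the members in every library. The members' median mean level was 1.06 FPKM, against 1.10 FPKM over the table. The higher members tested had a median log2 fold change of 1.34 and the lower ones of -1.19, against 1.56 and -1.34 over the table. Among the 25 members of DNA-binding families 19 were higher (76.0%, against 73.7% of all listed genes), with a median log2 fold change of 1.20 over the 23 tested. Among the co-regulators 6 of 9 were higher (66.7%, against the same 73.7%), with a median of 1.24. The members lay on 20 chromosomes, with at most 6 on one of them.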

How the data were processed

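RNA of 3 control and 3 shTMPRSS4 samples of AsPC-1 cells was analysed from 1 deposited table. Per the file headers, it holds whole-number read counts and FPKM values that the authors computed per gene and library, with the authors' mean FPKM per group, log2 fold change, p-value and FDR. A group mean of 0 is replaced by a small placeholder in the authors' deposited log2 fold changes, so these are not used for genes at 0. Bowtie 0.12.2 and mouse genome builds are named, per the submitters' processing notes, although all 753 identifiers are human and matched GENCODE release 29. The alignment reference is therefore uncertain, and no counter, annotation or test of the authors is recorded in these sources. The protocol in the labels covers all libraries and describes no strand marking.

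Members and lists were chosen with earlier results of these data known. Relative depth was the median ratio of counts to FPKM over 159 genes with at least 200 counts in every library, and absolute depth came from 12 of these with a single transcript. Counts were tested with edgeR 4.0.16 (R 4.3.3), quasi-likelihood, robust, library size set to that depth, with its filter on low counts and Benjamini-Hochberg adjustment over all 705 genes tested. The step was also run on simulated data in which most genes were unchanged. This table holds only genes selected to differ, so that run says nothing about the calls here. The p-values measure only the spread between these samples, which may be technical. Log2 fold changes and SE use depth-scaled counts plus 0.5. Alternatives used DESeq2 1.42.0, limma 3.58.1, other scalings, filters, a replicate block and each library left out. Per-library values are given for members with a group mean of 2 FPKM or more, for up to 8 rises and 8 falls (at least 0.5 FPKM, no overlap), for up to 6 members that overlapped or did not pass, and for the lowest FDR in families of at least 3. Values of 2 members are not reported here, although counts and medians over the members include them. MAFA, KLF8, SP140, HOXC10 and RAG1 were added after their values were seen. Upstream sequence is from RefSeq (GRCh38.p14) and gene coordinates from GENCODE (GRCh38).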

Additional observations from a re-analysis of the deposited data

How the results depend on the processing

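With the scale set by the listed genes, DESeq2 size factors gave 7 members called higher and a median log2 fold change of 0.0600, and TMM gave 6 and 0.0109, by construction, since both centre genes selected for a difference. Of the 39 members called with all libraries at recovered depth, 15 and 14 kept their call and direction. With DESeq2 size factors the log2 fold change was below 0 for PHF6 (-0.16), ZC3H6 (-0.0732), IRX5 (-0.10), EBF4 (-0.0747), ETV2 (-0.13), SOX6 (-0.26) and SKOR1 (-0.0085). With TMM it was below 0 for PHF6 (-0.21), ZC3H6 (-0.123), IRX5 (-0.15), EBF4 (-0.124), ETV2 (-0.18), SOX6 (-0.31), SKOR1 (-0.0575), MEIS1 (-0.0102), TET1 (-0.0226) and GATA2 (-0.0243). Upper-quartile scaling gave a median of 0.56 and kept 30 of the 39 calls. The median was 1.02 and 0.53 with limma on log2(FPKM + 0.1) and log2(FPKM + 1), where the pseudocount shrinks folds of low genes, and 1.24 with no filter on low counts. With at least 1 FPKM in the higher group, 25 members were tested and 18 called higher, against 324 of 457 listed genes. The members' median was then 1.09, and 23 members did not overlap. Leaving out each library in turn, the median lay between 1.22 and 1.30, the higher calls between 31 and 32, the lower calls between 8 and 9, and the members without overlap between 41 and 42. Over all listed genes, between 512 and 526 were then called higher and between 178 and 185 lower. With the replicate number as a block the calls were 31 higher and 8 lower as before, with 507 higher and 175 lower over all listed genes. Deviations of same-numbered libraries had correlations of -0.0723, -0.0594 and -0.0215, so the numbers are not shown to pair the samples. Depth limits HOXC12, SOX5, PINX1, HOXC10 and the controls of CBFA2T3 and ATOH8, which rest on few reads.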
